A study of Mus musculus with 12 samples.

Results

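The genes described here encode the subunits of the 5 oxidative phosphorylation complexes. They were chosen by symbol alone: every measured gene whose name starts with Nduf followed by a subunit letter and number, Sdha to Sdhd, names starting with Uqcr, Cyc1, the Cox subunits numbered 4 to 8, and names starting with Atp5. This gave 82 of the 19938 genes measured, of which 33 belong to complex I, 4 to complex II, 9 to complex III, 19 to complex IV and 17 to complex V. Ndufa4 and its paralogue Ndufa4l2 were counted with complex IV, where the Ndufa4 protein is now placed. Cox7c and Ndufb4 had no probeset under their symbol alone and were not analysed here. All values are log2 values from 1 probeset per gene, so levels of different genes were not compared with each other, apart from a percentile given for some isoforms.

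Complexes I and II take electrons from NADH and succinate, complex III hands them to cytochrome c, and complex IV passes them to oxygen, while complexes I, III and IV pump protons across the inner mitochondrial membrane. Complex V, the ATP synthase, uses the returning protons to make ATP. Most subunits are encoded in the nucleus and a few core subunits in the mitochondrial genome, and several complex IV subunits exist as isoforms used in particular tissues such as muscle, lung or testis.

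RNA came from GFP+ mammary cells of 10 to 14-week-old female mice, sorted into CD24 high cells, labelled luminal, and CD24 low cells, labelled myoepithelial. All mice carried MMTV::Cre and the mT/mG reporter, in which Cre recombination turns on GFP. The Wnt4-deleted group was MMTV::Cre+.Wnt4fl/fl.mT/mG and the WT group was MMTV::Cre+.Wnt4wt/wt.mT/mG, so Cre itself was present in both. Wnt4 encodes a secreted Wnt ligand made by progesterone receptor-positive luminal cells, and the arrays addressed how the epithelial lineages change when it is lost. The MMTV promoter drives Cre in the mammary epithelium, and the sort on GFP keeps recombined cells. Each of the 4 groups had 3 arrays, called below by their title numbers: 1, 9 and 13 for WT CD24 low, 3, 11 and 15 for Wnt4-deleted CD24 low, 2, 10 and 14 for WT CD24 high, and 4, 12 and 16 for Wnt4-deleted CD24 high. The numbers run in 3 sets (1 to 4, 9 to 12 and 13 to 16), and every set holds all 4 groups. The sources speak of both mammary glands and mammary grafts and tie no array to an experiment. A p-value thus reflects only how far arrays of the same group lie apart, and some of that may be technical. For each gene this spread was pooled over all 4 groups and drawn towards that of the other genes.

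The fractions carried the markers of their labels. The mean of 12 general luminal markers was 10.75 to 11.06 in the CD24 high arrays against 8.28 to 9.03 in the CD24 low arrays, and the mean of 12 myoepithelial markers was 6.12 to 7.05 against 10.76 to 11.28. Wnt4, the targeted gene, measured 7.42, 7.92 and 7.62 in the WT CD24 high arrays and 6.11, 6.46 and 6.78 in the Wnt4-deleted ones, with no overlap. In this comparison 7.0% of all genes did not overlap. By limma with adjustment over all genes, 1 gene was called there and it was higher, so the fall of Wnt4 did not pass. In CD24 low cells Wnt4 lay between 6.20 and 6.66 in both genotypes. Some arrays stood apart alone or together. Arrays 1 and 3 did so in skeletal muscle transcripts, arrays 9 and 11 in fibroblast and pericyte transcripts, and arrays 9, 11, 13 and 15 in endothelial transcripts. Array 2 did so in the members themselves and in the spread of its values over all genes, the smallest of the 12 (SD 1.97, against 2.002 to 2.16). Array 11, where the members were lowest, had the next smallest spread (2.002). Array 4, where the members were highest, had the largest (2.16). Array 9, also low in the members, had an SD of 2.07. The part of this spread in the member levels was not tested.

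The subunit genes moved largely as a block from array to array, and the complexes moved together. For each member the deviation from its own mean over the 12 arrays was taken, and these were averaged. The mean deviation was 0.08, -0.45 and -0.12 in WT CD24 low arrays 1, 9 and 13, and 0.05, -0.71 and 0.03 in Wnt4-deleted CD24 low arrays 3, 11 and 15. It was -0.43, 0.23 and 0.41 in WT CD24 high arrays 2, 10 and 14, and 0.46, 0.10 and 0.36 in Wnt4-deleted CD24 high arrays 4, 12 and 16. Thus 5 of the 6 CD24 high arrays lay above every CD24 low array, and array 2 lay with the lowest CD24 low arrays. Complex I ranged most widely, from -0.89 in array 11 to 0.59 in array 4, and complex IV least, from -0.35 to 0.19 in the same arrays. The complex IV mean includes 8 isoform genes, named below, that correlated least with the other members. Their part in its narrow range was not tested. By group the mean deviation was -0.16 ± 0.27 (SD, n = 3) for WT CD24 low, -0.21 ± 0.43 for Wnt4-deleted CD24 low, 0.07 ± 0.44 for WT CD24 high and 0.30 ± 0.19 for Wnt4-deleted CD24 high.

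**Figure D1:**
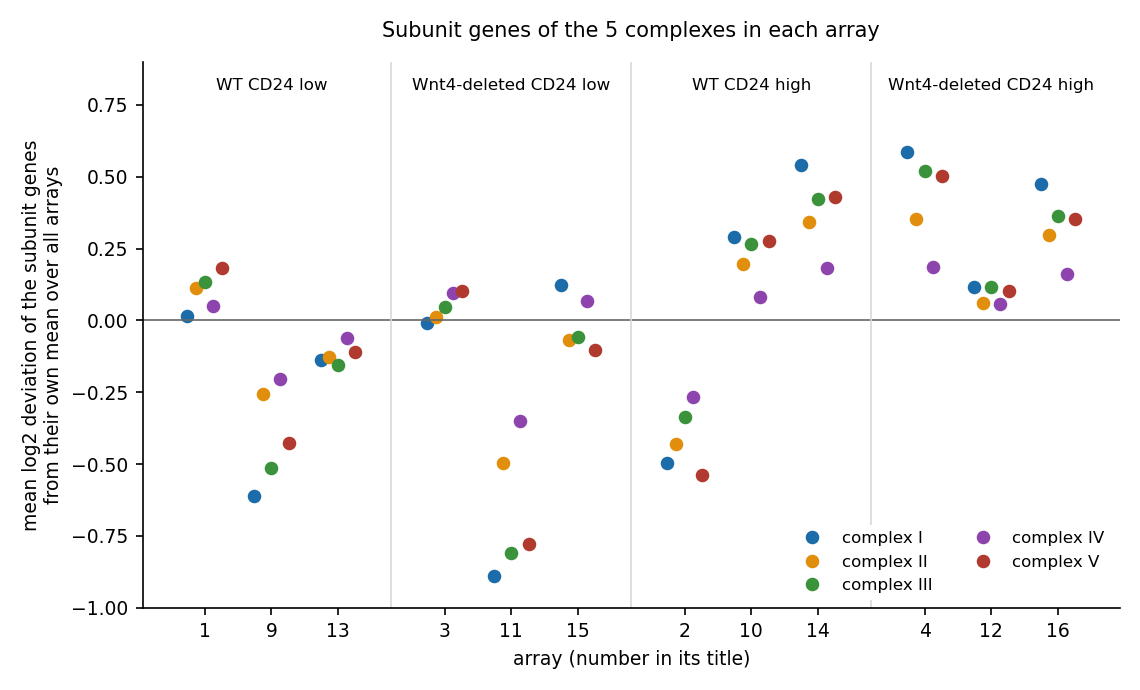
Mean deviation of the subunit genes of complexes I to V from their own mean over 12 arrays (log2, y axis) in each array (x axis, by group). Each point is the mean over 1 complex. Array 2 lies at -0.54 to -0.27 for the 5 complexes, below the other 5 CD24 high arrays, and arrays 9 and 11 are the lowest CD24 low arrays.

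Across the 12 arrays 64 of 82 members correlated with the mean of the other members at r above 0.8, 37 of them above 0.9, and the median r was 0.89. All points share normalization and array, and these correlations are a description only. The 8 members with r under 0.5 all belonged to complex IV and were the duplicate isoform genes of its subunits: Ndufa4l2 (r = -0.84), Cox4i2 (-0.77), Cox8c (-0.54), Cox7b2 (-0.37), Cox6a2 (-0.10), Cox8b (-0.07), Cox6b2 (0.21) and Cox7a1 (0.30). Several were low. The mean level lay at percentile 5.49 of all genes for Cox7b2, 29.4 for Cox8c, 35.6 for Cox8b, 37.6 for Ndufa4l2 and 43.2 for Cox4i2. The part of background signal in their values was not tested.

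Because the members moved together, their promoters were read for motifs known from nuclear genes of respiration. RefSeq entries for GRCm38.p6, each 250 bases before to 50 bases after a start, were found for 66 of the 82 members by gene ID. The NRF1 motif CGCATGCG was present in 9 of the 66 (13.6%), against 2.77% of 17492 protein-coding genes. The ETS motif CCGGAAG, bound by GABPA among others, was present in 17 (25.8%, against 12.9%), and the YY1 motif AAGATGGCG in 7 (10.6%, against 2.14%). The ESRRA motif TCAAGGTCA was present in 2 (3.03%, against 0.377%). GC-box letters GGGCGG, bound by SP1, were found in 27 (40.9%, against 49.2%) and E-box letters CACGTG in 6 (9.09%, against 8.91%). Both strands were searched and no motif contains another. Member promoters held a median of 19 CpG dinucleotides, against 13 in protein-coding genes, and every motif but that of ESRRA contains CG. The shares were not adjusted for this. A match describes letters in this window and not a site in use.

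The 180 bases before the start are shown for 6 members that differ in behaviour or motif, with NRF1, ETS, YY1 and ESRRA matches in capitals. Atp5g2 (subunit c of the ATP synthase), Cox6a1 (the general isoform of subunit 6A) and Ndufb7 (complex I) hold matches. Cox7a2 (the general isoform of subunit 7A), Cox7a1 (its heart and muscle isoform) and Cox8b (the muscle and brown fat isoform of subunit 8) hold none in these bases. The Cox6a1 stretch has 22 CpG dinucleotides, and those of Cox7a1 and Cox8b have 4 and 1.
Atp5g2, GRCm38 chr15:102671048-102671227, minus strand: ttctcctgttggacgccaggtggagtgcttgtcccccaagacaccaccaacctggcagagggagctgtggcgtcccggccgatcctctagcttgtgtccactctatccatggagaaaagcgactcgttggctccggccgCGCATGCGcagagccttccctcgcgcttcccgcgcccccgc
Cox6a1, GRCm38 chr5:115348959-115349138, minus strand: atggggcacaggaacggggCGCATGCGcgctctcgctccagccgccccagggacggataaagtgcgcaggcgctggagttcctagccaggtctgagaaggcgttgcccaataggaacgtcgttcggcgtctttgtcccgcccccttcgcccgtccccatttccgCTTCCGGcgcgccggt
Cox7a1, GRCm38 chr7:30183991-30184170, plus strand: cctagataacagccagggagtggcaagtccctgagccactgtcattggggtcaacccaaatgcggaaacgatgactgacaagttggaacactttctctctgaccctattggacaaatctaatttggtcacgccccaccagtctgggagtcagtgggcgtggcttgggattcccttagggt
Cox7a2, GRCm38 chr9:79759854-79760033, minus strand: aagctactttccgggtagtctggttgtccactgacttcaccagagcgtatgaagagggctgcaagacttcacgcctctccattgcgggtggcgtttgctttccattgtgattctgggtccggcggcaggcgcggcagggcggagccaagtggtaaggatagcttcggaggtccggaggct
Cox8b, GRCm38 chr7:140900447-140900626, minus strand: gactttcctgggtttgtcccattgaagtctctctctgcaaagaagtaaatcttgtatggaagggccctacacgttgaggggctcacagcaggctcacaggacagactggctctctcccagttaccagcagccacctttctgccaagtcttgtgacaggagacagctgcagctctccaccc
Ndufb7, GRCm38 chr8:83566578-83566757, plus strand: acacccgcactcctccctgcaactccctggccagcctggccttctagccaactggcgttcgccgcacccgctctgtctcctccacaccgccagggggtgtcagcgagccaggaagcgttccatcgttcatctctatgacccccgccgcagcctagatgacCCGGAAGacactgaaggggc
The NRF1 match of Atp5g2 starts at -41 from the start site, the NRF1 and ETS matches of Cox6a1 at -161 and -16, and the ETS match of Ndufb7 at -20. In Cox6a1 the ETS letters lie on the opposite strand.

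In WT mice the comparison of CD24 high with CD24 low cells asked how the subunit genes differ between the luminal and myoepithelial fractions. Most members were higher in CD24 high cells, by a small amount, and a single isoform gene, Cox7a1, rose. The log2 difference was above 0 for 65 of 82 members, with a median of 0.25 (1.19-fold) beside a median of 0.02 over all genes. By limma with Benjamini-Hochberg adjustment over all genes at a threshold of 0.05, 1 member was higher and 0 were lower, where 7.93% of all genes were called higher and 8.21% lower. At an unadjusted p under 0.05 there were 8 members, all higher, where 13.8% of all genes were higher and 12.6% lower. The arrays of the fractions did not overlap for 10 members, all higher in CD24 high cells, and this share lies under the 17.1% of all genes that were higher without overlap (15.7% were lower). In bulk samples, fewer cells of a type and less RNA per cell cannot be told apart.

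In Wnt4-deleted mice the same comparison gave larger differences with all arrays, but not without WT array 2, when the WT median was 0.55. In Wnt4-deleted cells 76 of 82 members were higher in CD24 high cells, with a median of 0.56 (1.47-fold) beside 0.01 over all genes. The test called 6 members higher (Ndufa7, Cox7a1, Ndufv3, Atp5c1, Ndufb7 and Cox8a) and 1 lower (Cox4i2), beside 8.23% of all genes called higher and 8.22% called lower. The 6 of 82 called higher thus lay near the share of all genes. With a fit on the compared groups only, none of these members passed and Sdha alone was called, beside 11.2% of all genes. At an unadjusted p under 0.05 there were 26 members higher and 2 lower, where 14.6% of all genes were higher and 13.3% lower. With the sets of title numbers as a block, 10 members were called higher and 2 lower, where 18.8% of all genes were called. Without overlap, 30 members were higher and 3 lower, where 15.1% of all genes were higher and 14.2% lower.

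**Figure D2:**
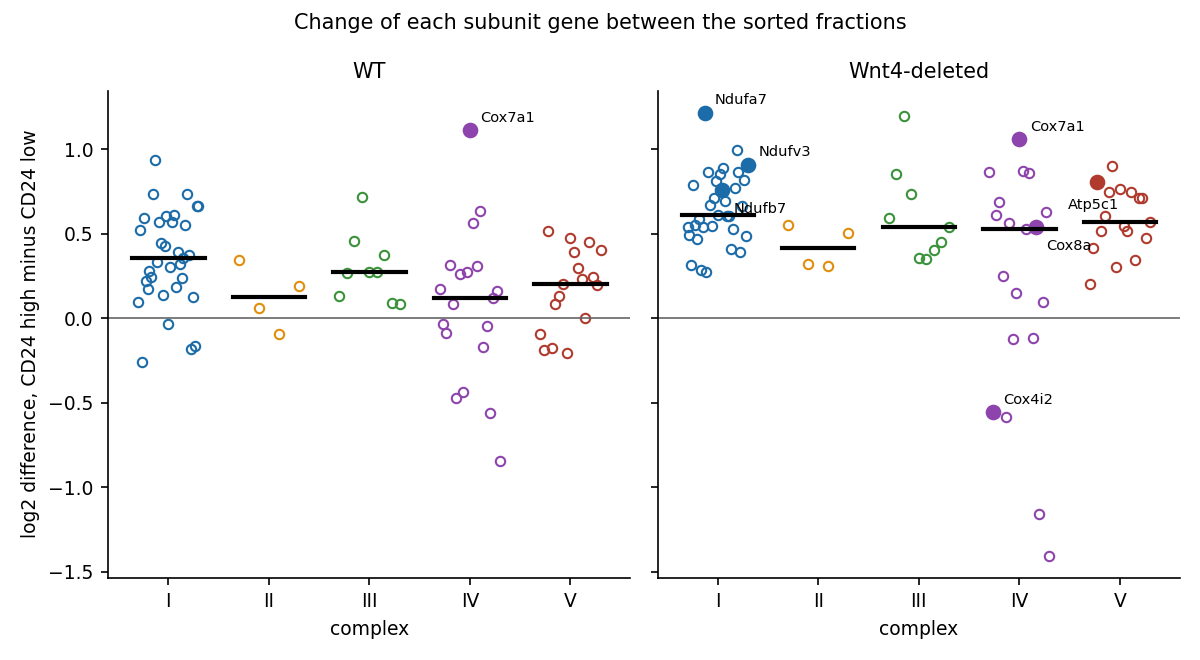
Log2 difference of CD24 high minus CD24 low (y axis) of each of the 82 subunit genes by complex (x axis), in WT (left) and Wnt4-deleted cells (right). Filled points passed the adjusted test and are named, open points did not, and black bars are medians. Nearly all members lie above 0 in Wnt4-deleted cells, and the members far below 0 are complex IV isoforms.

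The median difference was above 0 for every complex in both genotypes. It was 0.36 in WT and 0.61 in Wnt4-deleted cells for complex I, 0.12 and 0.41 for complex II, 0.27 and 0.54 for complex III, 0.12 and 0.53 for complex IV, and 0.20 and 0.57 for complex V. The SE of a single member was 0.11 to 0.66, with a median of 0.32. In Wnt4-deleted cells all 33 members of complex I, 4 of complex II, 9 of complex III and 17 of complex V were above 0. In complex IV 13 were above and 6 below.

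The difference in WT depended on the set of title numbers. Within arrays 1 to 4 the median member was lower in the CD24 high array (-0.46, with 64 of 82 lower), and within the other sets it was higher (0.78 and 0.53, with 76 of 82 higher in each). In Wnt4-deleted cells the median was 0.45, 0.91 and 0.33 in the 3 sets, with 76, 77 and 71 members higher. Array 2 was the lowest of the 6 CD24 high arrays for 67 of 82 members, against 20.9% of all genes, and its median distance to the other 5 was -0.77, against 0.06 for all genes. Without array 2 the WT median was 0.55 and 6 members were called, all higher, where 14.98% of all genes were called in either direction. These were Atp5h, Cox7a1, Cox7a2l, Ndufb8, Ndufs5 and Sdha. Without array 10 none was called in WT, beside 12.02% of all genes, and without array 11 or array 15 there were 4 calls each, beside 16.4% and 17.2%. In Wnt4-deleted cells the number called was 12 without array 2 (17.5% of all genes), 11 without array 15 (14.5%) and 3 without array 12 (13.2%). It was 1 without array 4, 11 or 16, beside 13.6%, 12.6% and 10.8% of all genes. The WT median was 0.03 without arrays 9 to 12, with 42 of 82 members higher, 0.10 without arrays 13 to 16, with 50 higher, and 0.67 without arrays 1 to 4, with 75 higher.

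In the CD24 low fraction the matching array was 11. It was the lowest of the 6 CD24 low arrays for 66 of 82 members, against 20.6% of all genes, and its median distance to the others was -0.69, against -0.02 for all genes. Arrays 9 and 11 also carried the highest means of 9 fibroblast markers (8.54 and 8.12, against 5.62 to 6.53 in the other CD24 low arrays and 5.30 to 5.86 in CD24 high arrays) and of 8 pericyte markers (6.88 and 7.30, against 5.84 to 6.14 and 5.21 to 5.76). The mean of 10 endothelial markers was 8.05, 8.85, 9.19 and 8.86 in CD24 low arrays 9, 13, 11 and 15, 6.60 and 6.501 in arrays 1 and 3, and 5.18 to 6.42 in CD24 high arrays. Of these markers 5 were called lower in CD24 high cells in WT and 6 in Wnt4-deleted cells, where 8.21% and 8.22% of all genes were. The part of these transcripts in the member values was not tested. Without arrays 9 and 11, a choice made after the data were seen, the median difference was 0.08 in WT with 1 call and 0.29 in Wnt4-deleted cells with 1 call, both Cox7a1.

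Complex I, NADH dehydrogenase, held 3 of the called members. Ndufa7, an accessory subunit, measured 8.997, 8.40 and 9.23 in WT CD24 low arrays 1, 9 and 13 and 9.68, 9.72 and 10.03 in WT CD24 high arrays 2, 10 and 14. In Wnt4-deleted cells it measured 8.89, 7.93 and 9.51 in arrays 3, 11 and 15 and 10.20, 9.71 and 10.07 in arrays 4, 12 and 16. The fractions did not overlap in either genotype. The log2 difference was 1.22 ± 0.34 (SE, adjusted p = 0.0335, limma) in Wnt4-deleted and 0.94 ± 0.34 (adjusted p = 0.0962) in WT cells. It was the largest difference among the members of complex I in both genotypes. Ndufv3, an accessory subunit of the NADH-oxidising part, measured 8.31, 7.70 and 8.69 in Wnt4-deleted CD24 low and 9.09, 8.999 and 9.33 in Wnt4-deleted CD24 high arrays, a rise of 0.91 ± 0.25 (adjusted p = 0.0284, limma). Ndufb7, an accessory subunit of the membrane arm, measured 9.91, 9.34 and 9.94 against 10.69, 10.41 and 10.36, a rise of 0.76 ± 0.21 (adjusted p = 0.0317, limma). In WT cells the differences of Ndufv3 (0.66) and Ndufb7 (0.57) went the same way without overlap of arrays and did not pass. The calls in Wnt4-deleted cells held under 16 of 26 other settings for Ndufa7, lost without array 3, 4, 11 or 16, and under 17 each for Ndufv3 and Ndufb7, lost without array 4, 11, 12 or 16. All 3 calls were also lost with the compared groups only, without each set of title numbers and without arrays 9 and 11. That of Ndufa7 was lost without arrays 1 and 3 as well.

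Ndufs1 and Ndufv1, core subunits of complex I that carry iron-sulphur clusters and the NADH site, did not pass in any comparison. Ndufv1 measured 9.06, 8.27 and 8.65 in WT CD24 low, 7.24, 8.90 and 9.34 in WT CD24 high, 9.03, 7.46 and 8.10 in Wnt4-deleted CD24 low and 9.36, 8.62 and 9.06 in Wnt4-deleted CD24 high arrays. Its lowest values were those of arrays 2 and 11, and the groups overlapped. The log2 difference between fractions was -0.16 ± 0.52 (SE) in WT and 0.81 ± 0.52 in Wnt4-deleted cells. Ndufs1 varied less, between 7.20 and 8.01 over all arrays, with differences of 0.24 ± 0.19 and 0.41 ± 0.19. Ndufa6, another accessory subunit, was higher without overlap in WT CD24 high cells (0.73 ± 0.30) but its arrays overlapped in Wnt4-deleted cells, where array 15 at 9.62 was its highest value.

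None of the 4 genes of complex II, succinate dehydrogenase, passed. Sdha, the flavoprotein that oxidises succinate, measured 8.74, 8.82 and 8.63 in WT CD24 low and 8.36, 9.39 and 9.48 in WT CD24 high arrays, and 8.84, 8.62 and 8.83 in Wnt4-deleted CD24 low against 9.45, 9.16 and 9.34 in Wnt4-deleted CD24 high arrays. The Wnt4-deleted fractions did not overlap, and in WT array 2 lay below the CD24 low arrays while the others lay above them. The differences were 0.35 ± 0.24 (SE, adjusted p = 0.443, limma) in WT and 0.55 ± 0.24 (adjusted p = 0.167) in Wnt4-deleted cells. Sdhb, the iron-sulphur subunit, differed by 0.06 ± 0.29 and 0.32 ± 0.29, and Sdhc, a membrane anchor, by -0.09 ± 0.23 and 0.31 ± 0.23.

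All 9 genes of complex III, the cytochrome bc1 complex, were higher in CD24 high cells in both genotypes, and none passed. Cyc1, which encodes cytochrome c1, measured 9.04, 8.71 and 8.83 in WT CD24 low, 8.82, 8.95 and 9.20 in WT CD24 high, 8.98, 7.84 and 8.59 in Wnt4-deleted CD24 low and 9.36, 8.77 and 9.05 in Wnt4-deleted CD24 high arrays. The fractions overlapped in each genotype, with differences of 0.13 ± 0.26 (SE) and 0.59 ± 0.26. Uqcrfs1, the Rieske iron-sulphur protein, differed by 0.37 ± 0.26 in WT and 0.40 ± 0.26 in Wnt4-deleted cells. Uqcr10, a small subunit, differed by 0.27 ± 0.48 and 0.85 ± 0.48, and Uqcrc1, a core subunit, by 0.27 ± 0.22 and 0.35 ± 0.22.

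Among the genes of complex V 1 passed. Atp5c1, the gamma subunit that forms the rotating central stalk, measured 10.83, 9.87 and 10.37 in Wnt4-deleted CD24 low and 11.39, 10.96 and 11.14 in Wnt4-deleted CD24 high arrays. The fractions did not overlap and the rise was 0.81 ± 0.25 (SE, adjusted p = 0.0481, limma). The call held under 11 of 26 other settings (adjusted p 0.0115 to 0.295, limma), and among single arrays it held only when array 2 or array 3 was left out. In WT cells Atp5c1 measured 10.78, 10.30 and 10.42 against 10.64, 11.11 and 11.28, with array 2 the single CD24 high array inside the CD24 low range, and the difference was 0.51 ± 0.25 (adjusted p = 0.224). The catalytic genes did not pass: Atp5a1 (alpha) differed by -0.09 ± 0.28 in WT and 0.20 ± 0.28 in Wnt4-deleted cells, and Atp5b (beta) by -0.19 ± 0.30 and 0.41 ± 0.30.

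Atp5g1, Atp5g2 and Atp5g3 encode the same mature subunit c of the membrane ring through different precursors. Their differences between fractions were 0.13 ± 0.25, 0.20 ± 0.39 and -0.21 ± 0.39 (SE) in WT and 0.75 ± 0.25, 0.90 ± 0.39 and 0.30 ± 0.39 in Wnt4-deleted cells, and none passed. Array 2 was the lowest CD24 high array for each, at 10.09, 10.11 and 9.62 against at least 10.29, 11.32 and 10.92 in the other 5.

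Complex IV, cytochrome c oxidase, held 3 of the called members, of which Cox7a1 was called in both genotypes. Cox7a1, the heart and muscle isoform of subunit 7A, measured 6.18, 6.74 and 6.18 in WT CD24 low and 7.41, 7.75 and 7.28 in WT CD24 high arrays. In Wnt4-deleted cells it measured 6.57, 6.99 and 6.31 against 7.35, 7.53 and 8.17. All 6 CD24 high arrays, array 2 included, lay above all 6 CD24 low arrays. The rise was 1.11 ± 0.25 (SE, 2.16-fold, adjusted p = 0.0110, limma) in WT and 1.06 ± 0.25 (2.08-fold, adjusted p = 0.0142) in Wnt4-deleted cells, and the genotypes' rises differed by 0.05 (95% interval -0.73 to 0.84). It kept the call under 21 of 26 other settings in WT and 22 of 26 in Wnt4-deleted cells, and lost it in WT without array 10, without arrays 1 and 3 and without each set of title numbers. In Wnt4-deleted cells it was lost without array 15 or array 16, without arrays 13 to 16 and with the compared groups only. Its general counterpart Cox7a2 differed by 0.56 ± 0.35 and 0.87 ± 0.35 and did not pass. Mean levels of 6 brown adipocyte markers were 4.51 to 4.76 in all 12 arrays, and those of 16 skeletal muscle markers were 5.07 to 5.37 in CD24 high arrays, under the 6.63 and 7.54 of CD24 low arrays 1 and 3. Within these lists Ucp1, which defines brown adipocytes, lay at 4.08 to 4.68. Cidea of the brown adipocyte list moved with Cox7a1, at 4.13 to 4.84 in CD24 low and 4.96 to 5.97 in CD24 high arrays, as did Mb (myoglobin) of the muscle list, at 5.89 to 6.62 and 6.64 to 7.63. Of the brown adipocyte markers 1 was called higher and 1 lower in WT and 1 higher in Wnt4-deleted cells, and of the muscle markers 1 was called higher in WT and 1 lower in Wnt4-deleted cells. The shares over all genes were 7.93% higher and 8.21% lower in WT, and 8.23% and 8.22% in Wnt4-deleted cells.

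Cox6a2, the heart and muscle isoform of subunit 6A, and Cox8b, the muscle and brown fat isoform of subunit 8, were high in the same arrays as the skeletal muscle markers. Cox6a2 reached 7.96 in array 1 and 7.998 in array 3, while the remaining 10 arrays lay at 6.38 to 6.89. Cox8b reached 6.48 and 7.74 there and stayed at 4.57 to 5.06 elsewhere. These are the arrays in which skeletal muscle markers such as Acta1 (10.28 and 10.998, against 6.48 to 7.10), a thin filament actin, and Tnnc2 (9.37 and 10.49, against 5.26 to 6.52), the fast troponin C, were high, while Myh1 stayed at 3.56 to 4.43 in all 12. Both isoforms had wide errors between fractions and did not pass: Cox6a2 differed by -0.47 ± 0.37 (SE) in WT and -0.58 ± 0.37 in Wnt4-deleted cells, and Cox8b by -0.56 ± 0.66 and -1.16 ± 0.66. Their general counterparts were not high in arrays 1 and 3 alone: Cox6a1 measured 12.22 and 12.08 there and 11.78 to 12.33 elsewhere, and Cox8a 10.52 and 10.18 against 10.00 to 10.90.

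Ndufa4l2 is a paralogue of Ndufa4 known as a hypoxia-induced gene and as abundant in pericytes. It reached 7.03 in array 9 and 7.01 in array 11, followed by 5.47 and 5.89 in arrays 13 and 15, and the remaining 8 arrays lay at 4.42 to 5.19. The 4 arrays above the rest were also those with the highest means of endothelial markers. The highest pair had the highest means of pericyte and fibroblast markers. Among these were Rgs5 (9.06 and 9.94), a pericyte gene, and Dpt (9.47 and 9.33), a dermatopontin made by fibroblasts. Other pericyte markers were highest elsewhere: Cspg4 (7.79) and Des (6.96) in array 3, and Notch3 in CD24 high array 10 (8.02). The difference between fractions was -0.85 ± 0.53 (SE) in WT and -1.41 ± 0.53 in Wnt4-deleted cells and did not pass (adjusted p = 0.376 and 0.105, limma). Of 11 genes listed as hypoxia and HIF targets, 0 were called higher and 2 lower in WT and 1 higher and 3 lower in Wnt4-deleted cells. Over all genes 7.93% were called higher and 8.21% lower in WT, and 8.23% and 8.22% in Wnt4-deleted cells. Ndufa4 itself differed by 0.16 ± 0.41 and 0.63 ± 0.41. The part of endothelial, pericyte or muscle transcripts in the levels of these isoforms was not tested.

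Cox4i2, the isoform of subunit 4 known from lung and from low oxygen, was the single member called lower. It measured 5.77, 6.12 and 5.76 in Wnt4-deleted CD24 low and 5.08, 5.44 and 5.46 in Wnt4-deleted CD24 high arrays, with no overlap. In WT cells it measured 5.68, 5.80 and 5.69 against 5.76, 5.59 and 5.71, and the fractions overlapped. It fell by 0.56 on the log2 scale (SE 0.14, adjusted p = 0.0184, limma) in Wnt4-deleted cells and differed by -0.03 ± 0.14 in WT cells. The call held under 19 of 26 other settings and was lost without array 4 or array 11 and with the compared groups only. It was also lost without each set of title numbers and without arrays 9 and 11. The mean level of Cox4i2 lay at percentile 43.2 of all genes. Its counterpart Cox4i1 differed by 0.17 ± 0.40 and 0.86 ± 0.40 and did not pass.

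Cox8a, the general isoform of subunit 8, measured 10.18, 10.00 and 10.47 in Wnt4-deleted CD24 low and 10.90, 10.67 and 10.70 in Wnt4-deleted CD24 high arrays, a rise of 0.54 ± 0.16 (SE, adjusted p = 0.0370, limma) with no overlap. The call held under 12 of 26 other settings and was lost without array 1, 3, 4, 10, 11, 12 or 16. It was also lost with an intensity trend and robust prior and with the compared groups only. The same held without each set of title numbers, without arrays 1 and 3 and without arrays 9 and 11. In WT cells it measured 10.52, 10.35 and 10.64 against 10.22, 10.48 and 10.66, a difference of -0.05 ± 0.16. Cox6b2, a testis isoform, was high in another pair of arrays, 13 and 15 (7.87 and 8.14, while the remaining 10 lay at 6.41 to 7.34), both of the CD24 low fraction and of the same set. Its counterpart Cox6b1 measured 11.999 and 12.08 in these arrays and 11.20 to 12.30 elsewhere. Cox7b2 (2.74 to 3.38) and Cox8c (4.57 to 5.19), also known from testis, are given by their range over the 12 arrays. Among the other general subunits Cox7b differed by 0.64 ± 0.34 in WT and 0.86 ± 0.34 in Wnt4-deleted cells, and Cox7a2l, which helps to join complexes III and IV, by 0.31 ± 0.32 and 0.53 ± 0.32.

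**Figure D3:**
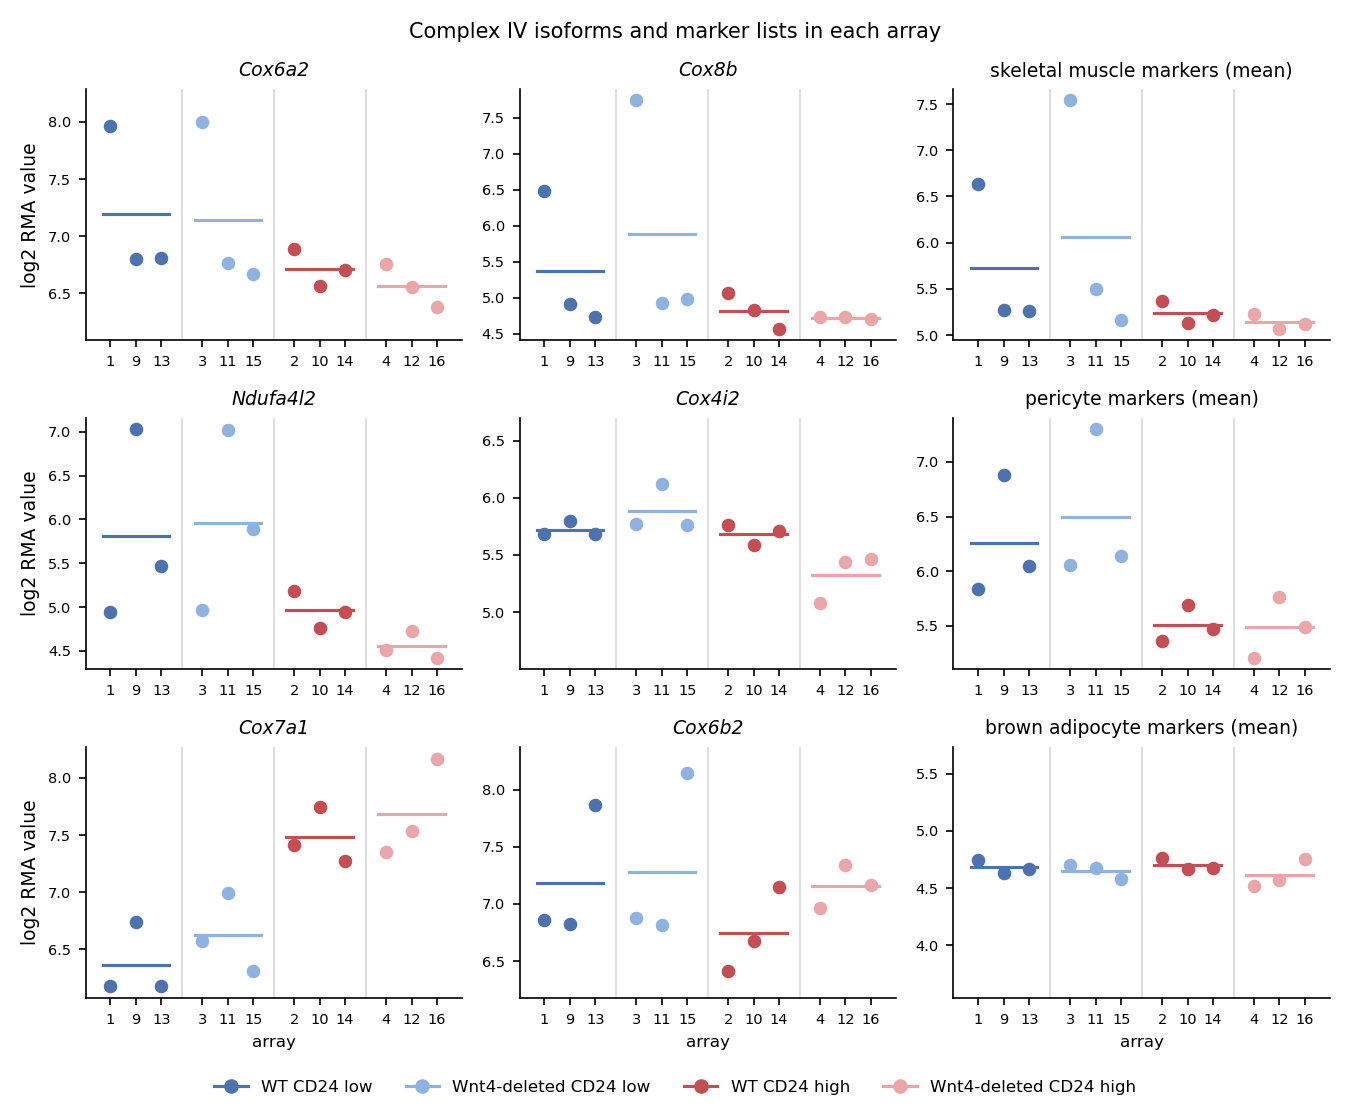
Log2 values (y axis) in each array (x axis) of 6 complex IV isoform genes and the means of 3 marker lists; points are arrays, bars are group means, and every panel spans at least 2 log2 units. Cox6a2 and Cox8b are high in arrays 1 and 3, as the skeletal muscle mean is. Ndufa4l2 is high in arrays 9 and 11, as the pericyte mean is, and Cox7a1 is higher in all CD24 high arrays.

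The deletion of Wnt4 was then compared within each fraction. In CD24 low cells the median difference of the members was -0.04, beside -0.02 over all genes, and 31 of 82 were higher in Wnt4-deleted cells. By limma 0 members passed, where 0.00502% of all genes did. At an unadjusted p under 0.05 there was 1 member, against 3.06% of all genes, and 2 members did not overlap between genotypes, against 6.77% of all genes. The latter were Sdhc and Atp5g1, both lower. Atp5g1, the member with the small p, measured 10.65, 10.35 and 10.40 in WT and 10.26, 9.50 and 9.67 in Wnt4-deleted arrays, with no overlap and a difference of -0.65 ± 0.25 (SE, unadjusted p = 0.0249, limma). Cox8a (-0.29 ± 0.16, unadjusted p = 0.0937, limma) and Cox6c (0.17 ± 0.11, unadjusted p = 0.146, limma) came next.

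Within the sets of title numbers the CD24 low difference changed direction. The median was -0.02 for array 3 minus array 1, -0.27 for array 11 minus array 9, with 72 of 82 members lower, and 0.16 for array 15 minus array 13, with 64 higher. By complex the median ranged from -0.13 in complex II to -0.01 in complex I. Without array 11 the median over members was 0.19, and without array 15 it was -0.20.

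In CD24 high cells the members were mostly higher in Wnt4-deleted arrays, but none passed and the shift rested on 1 WT array. The median was 0.23, beside -0.03 over all genes, and 74 of 82 members were higher. By limma 0 members passed, where 0.00502% of all genes did, and 1 member had an unadjusted p under 0.05, against 1.99% of all genes. The arrays of 3 members did not overlap, Cox8a higher and Cox4i2 and Ndufa4l2 lower, against 7.0% of all genes. Within sets the median was 0.90 for array 4 minus array 2, with 75 of 82 members higher, -0.13 for array 12 minus array 10, with 70 lower, and -0.05 for array 16 minus array 14, with 55 lower. Without array 2 the median was -0.02 and 35 of 82 members were higher.

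**Figure D4:**
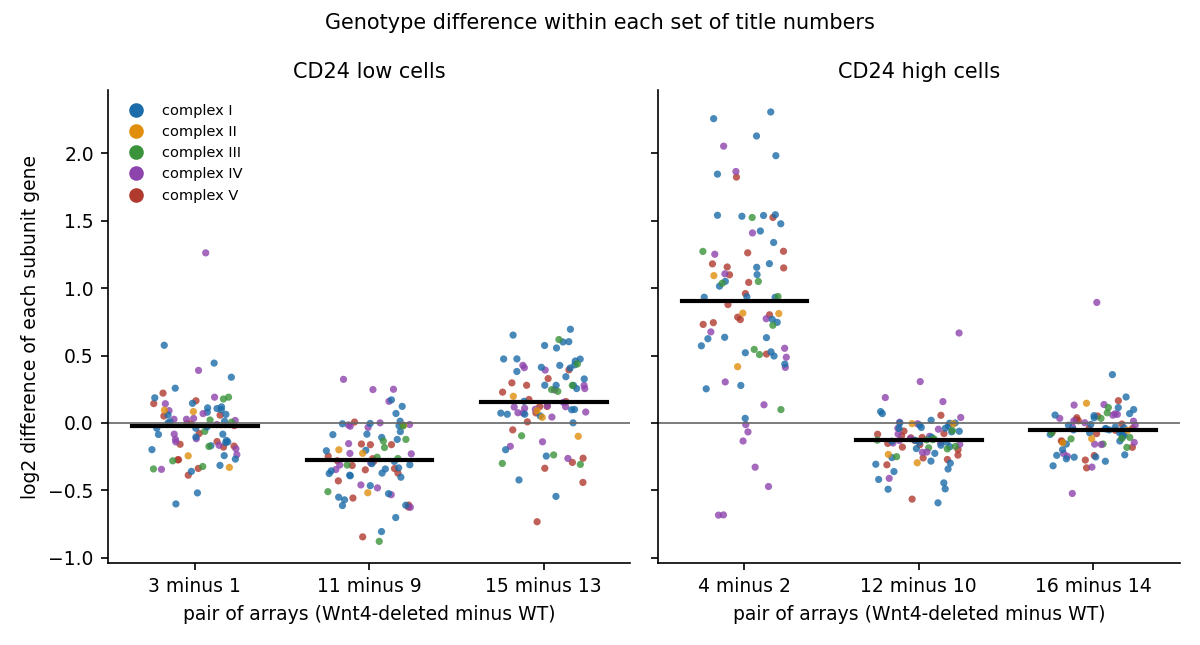
Log2 difference of Wnt4-deleted minus WT (y axis) of each of the 82 subunit genes for the pair of arrays in each set of title numbers (x axis), in CD24 low (left) and CD24 high cells (right); bars are medians and colours mark complexes. The pair of arrays 4 and 2 has a median of 0.90, and the other CD24 high pairs have medians of -0.13 and -0.05.

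The largest and smallest CD24 high differences in each complex are given as a description, since array 2 enters all of them. In complex I, Ndufb5 had the largest CD24 high difference (0.58 ± 0.59, SE): it measured 7.38, 9.42 and 9.56 in WT and 9.69, 8.93 and 9.49 in Wnt4-deleted arrays, so array 2 alone lay apart. In complex IV, Cox5a had the largest (0.65 ± 0.45) with 8.85, 10.56 and 10.74 against 10.90, 10.48 and 10.71. The largest in complexes II, III and V were Sdhc (0.25 ± 0.23), Uqcr10 (0.48 ± 0.48) and Atp5g3 (0.48 ± 0.39). The smallest were Ndufa6 (-0.02 ± 0.30), Sdhb (0.13 ± 0.29), Uqcrc1 (-0.06 ± 0.22), Ndufa4l2 (-0.41 ± 0.53) and Atp5g1 (-0.04 ± 0.25). Array 2 was not the lowest WT CD24 high array for Uqcrc1 (8.79, 8.58 and 8.73) or Ndufa4l2 (5.19, 4.76 and 4.94).

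The smallest unadjusted p in CD24 high cells belonged to Cox4i2, which measured 5.76, 5.59 and 5.71 in WT and 5.08, 5.44 and 5.46 in Wnt4-deleted arrays. The genotypes did not overlap, and the difference was -0.36 ± 0.14 (SE, unadjusted p = 0.0259, limma) with all 3 sets negative (-0.68, -0.15 and -0.25). Cox8a followed with 0.30 ± 0.16 (unadjusted p = 0.0819, limma) and Cox4i1 with 0.58 ± 0.40 (unadjusted p = 0.173, limma). For Cox4i1 the low value was again array 2, at 10.02 against 11.54 to 11.88 in the other CD24 high arrays.

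The difference of the genotype effects, CD24 low minus CD24 high, had a median of -0.29 over the members, with 71 of 82 below 0, beside 0.00 over all genes. By limma 0 members passed, where 0% of all genes did, and 2 had an unadjusted p under 0.05, against 1.37% of all genes. These were Cox8a (-0.59 ± 0.22, SE, unadjusted p = 0.0225, limma) and Cox4i2 (0.52 ± 0.20, unadjusted p = 0.0226, limma), followed by Atp5g1 (-0.62 ± 0.36, unadjusted p = 0.112, limma). Without array 2 the median was -0.04, and without array 11 it was -0.05. The comparisons share arrays, so the larger fraction difference in Wnt4-deleted cells and the genotype difference in CD24 high cells are not separate observations.

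Other nuclear genes of mitochondrial proteins also lay mostly higher in CD24 high cells, with shares of calls near those of all genes for the largest list. The direction was not particular to mitochondrial proteins. Of 53 cytosolic ribosomal protein genes 42 were higher in WT and 49 in Wnt4-deleted CD24 high cells, with medians of 0.10 and 0.18 and 0 called. In CD24 high against CD24 low cells, the median difference of 75 mitochondrial ribosomal protein genes was 0.40 in WT and 0.54 in Wnt4-deleted cells, with 6 and 7 called higher and 0 lower. Of 43 assembly factors 3 were called higher in WT and 7 in Wnt4-deleted cells and 0 lower, with medians of 0.34 and 0.33. Cox17, a copper chaperone for complex IV, rose by 1.61 ± 0.25 (SE, adjusted p = 0.00105, limma) and 1.46 ± 0.25 (adjusted p = 0.00189), and Ndufaf6, a complex I factor, was called in both genotypes. Among 16 genes of mobile carriers and electron entry, 2 were called higher and 1 lower in WT and 5 higher in Wnt4-deleted cells. The counts of all these lists stand beside 7.93% of all genes called higher and 8.21% lower in WT. In Wnt4-deleted cells these shares were 8.23% and 8.22%. Coq7, a ubiquinone synthesis enzyme, rose by 1.19 ± 0.23 and 0.94 ± 0.23, and Sqor, which passes electrons from sulphide to ubiquinone, rose by 1.46 ± 0.37 and 1.49 ± 0.37.

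Of 18 genes of the TCA cycle and pyruvate dehydrogenase 16 lay higher in CD24 high cells in WT and all 18 in Wnt4-deleted cells. In each genotype 1 was called higher, Pcx (pyruvate carboxylase, 0.71 ± 0.18 and 0.84 ± 0.18), with list medians of 0.20 and 0.34. Of 14 glycolysis genes, 2 were called higher and 1 lower in WT and 1 higher and 2 lower in Wnt4-deleted cells, with medians of -0.54 and 0.10. For both lists the shares over all genes were 7.93% higher and 8.21% lower in WT, and 8.23% and 8.22% in Wnt4-deleted cells. Aldoc, aldolase C, rose by 2.81 ± 0.44 and 3.13 ± 0.44, and Pfkp, a phosphofructokinase, fell by 1.25 and 1.18. Among 17 nuclear regulators of mitochondrial genes, Esrrg, an estrogen-related receptor, rose by 1.32 ± 0.21 and 1.22 ± 0.21, and Pprc1, a PGC-1-related coactivator, fell by 0.90 and 0.92, and Ppargc1b, a PGC-1 coactivator, fell by 0.47 in WT cells (adjusted p = 0.0328, limma). Nrf1, Gabpa, Yy1 and Esrra were not called between fractions in either genotype. No gene of these lists was called between genotypes.

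The mitochondrially encoded subunits did not share the pattern of the nuclear ones. Of 13 listed genes 2 were measured, ND3 of complex I and COX2 of complex IV. Their mean was 11.97, 12.37 and 12.42 in WT CD24 low, 12.15, 12.67 and 12.47 in Wnt4-deleted CD24 low, 12.52, 12.22 and 12.17 in WT CD24 high and 12.35, 12.59 and 12.38 in Wnt4-deleted CD24 high arrays. Arrays 11 and 2, where the nuclear members were among the lowest, were among the highest here, and array 1 was the lowest. Other arrays did not follow this: array 12, with the members above their mean (0.10), was also high at 12.59. Array 9, with the members low (-0.45), lay at 12.37. The difference between fractions was 0.09 ± 0.17 (SE) in WT and -0.04 ± 0.17 in Wnt4-deleted cells for COX2, and 0.01 ± 0.18 and 0.06 ± 0.18 for ND3, and neither passed. The levels of ribosomal protein genes of the cytosol, whose products lie outside the mitochondrion, deviated in the same direction as the members in arrays 2 and 11 (-0.18 and -0.29), as did glycolysis genes (-0.56 and -0.36). The part of array quality in these shared deviations was not tested.

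**Figure D5:**
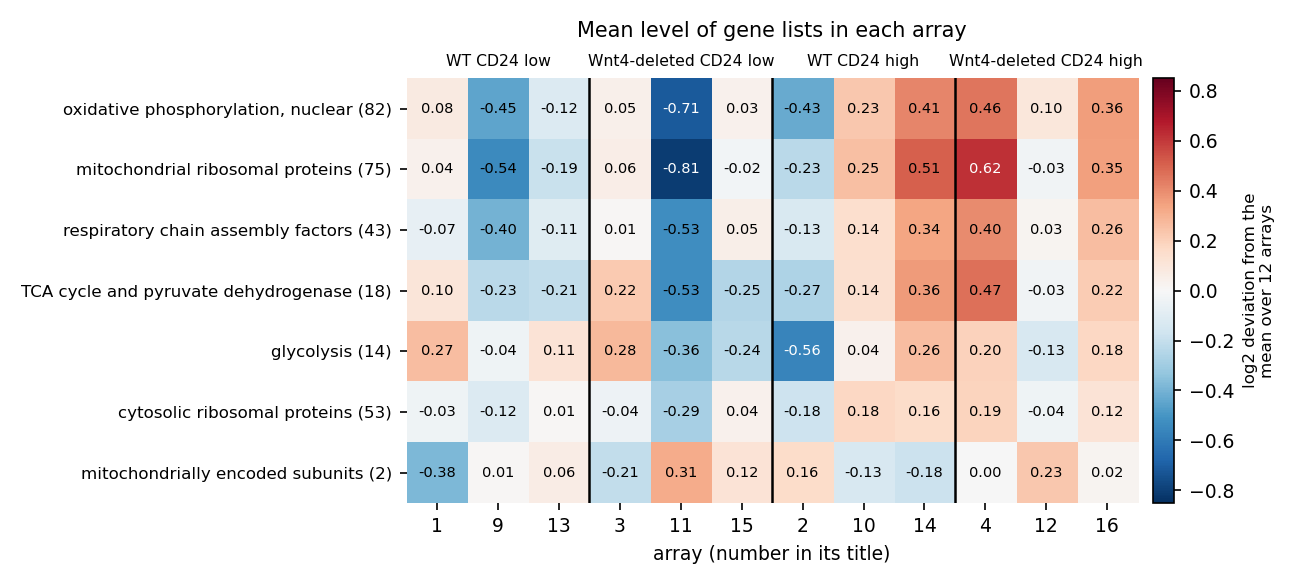
Deviation of the mean of each gene list from its mean over 12 arrays (log2, colour and printed value) by list (rows, number of genes in brackets) and array (columns, by group). Arrays 2 and 11 are low for the nuclear lists and above 0 for the 2 mitochondrially encoded subunits.

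For 16 members several probesets carried the same symbol, up to 6 for Atp5l. All probesets of a gene agreed in direction in both fraction comparisons and in the CD24 high genotype comparison. In the CD24 low genotype comparison those of Atp5pb, Ndufb11 and Ndufc1 differed in direction, with values of -0.12 to 0.08.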

How the data were processed

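Total RNA of 12 sorted samples was, per the labels, amplified and biotin-labelled with NuGEN Ovation kits for Affymetrix arrays. The deposited log2 values were made by the authors with RMA (Affymetrix Expression Console 1.1.2800 in the submitters' notes), which corrects background and normalizes by quantiles. Precision is limited by the 3 arrays per group.

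Of 35556 probesets, 21789 with 1 gene symbol in the platform annotation were used, 1621 with several and 12146 without an entry were left out, and the probeset with the highest mean represented each of 19938 genes. limma 3.58.1 in R 4.3.3 fitted 1 mean per group over 12 arrays (8 residual degrees of freedom, 11.0 after moderation). Tests were two-sided with Benjamini-Hochberg adjustment over all genes within each of 5 comparisons, at 0.05. The fit was tested on simulated data with independent genes and no shared deviation of arrays. That test does not cover members and arrays that move together, as they do here. Promoters came from RefSeq, GRCm38.p6. Named were duplicate isoforms, catalytic or core subunits, up to 6 members per direction that passed without overlap (or the 3 smallest p where fewer than 3 passed), the largest and smallest CD24 high genotype difference of each complex, and the 5 members least correlated with the rest, 38 in all. Markers and other genes named beside them were chosen after their values were seen. The members and lists were chosen with earlier results of these data known. Alternatives were a low-level filter at the 40th percentile, probeset means, median centring, a second quantile normalization, an intensity trend with robust prior, array weights, fits on the compared groups, title-number sets as replicate block, and omission of arrays or sets. Leaving out arrays 1 and 3 or 9 and 11 was chosen after seeing the data. The labels do not say what the sets of title numbers are. Same-set arrays deviated together from their group means in every set between the CD24 low groups (r 0.37 to 0.70 over all genes, 0.80 to 0.84 over members, against -0.53 to 0.10 over all genes across sets) and between the Wnt4-deleted fractions (0.18 to 0.53, members 0.26 to 0.62), so there the blocked count is given beside the result where it moved.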

Additional observations from a re-analysis of the deposited data

How the results depend on the processing

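The number of members called in CD24 high against CD24 low cells depended on the setting. The medians of these comparisons stayed above 0 in every setting, but in WT not always clearly. Without arrays 9 to 12 the WT median was 0.03 with 42 of 82 members higher, beside 0.02 over all genes. Within arrays 1 to 4 alone the WT median was -0.46. In WT cells, where 1 member was called (16.1% of all genes), the number was 2 after a second quantile normalization (17.3%). It was 21 with array weights (26.2%), which gave array 2 the smallest weight, 0.37. It was 3 with the compared groups only (17.0%) and 3 with the sets of title numbers as replicate block (18.2%). Without arrays 1 to 4 it was 6 (17.0%). It was 0 without arrays 9 to 12 (6.89%), arrays 13 to 16 (6.72%), or arrays 1 and 3 (15.2%). Leaving out single arrays gave 0 to 6. The median difference in WT was 0.67 without arrays 1 to 4, 0.03 without arrays 9 to 12, 0.10 without arrays 13 to 16 and 0.08 to 0.55 without single arrays. In Wnt4-deleted cells, where 7 were called (16.4% of all genes), the number was 18 with array weights (20.8%) and 12 with the replicate block (18.8%). With the compared groups only, 1 was called (11.2%): it was Sdha, and none of the 7 was kept. The number was 1 without arrays 9 to 12 (Cox7a1, 7.05%) and 1 without arrays 13 to 16 (Uqcrb, 6.77%). It was 12 without arrays 1 and 3 (17.9%) and 1 without arrays 9 and 11 (Cox7a1, 11.4%). Leaving out single arrays gave 1 to 12, and the median stayed at 0.29 to 0.71. As a random replicate block the sets gave 1 and 7 calls, beside 17.3% and 17.6% of all genes. Between genotypes and for the difference of effects 0 members were called under all 26 alternatives, and the medians ranged from -0.20 to 0.19 in CD24 low, from -0.10 to 0.42 in CD24 high cells and from -0.54 to 0.03 for the difference. Apart from these WT and Wnt4-deleted counts the replicate block changed no count of calls. Between the WT fractions and between the CD24 high groups same-set deviations from the group means correlated at -0.06 to 0.11 and -0.12 to 0.29 over all genes. Of the 8 named values that passed, 0 changed direction and 0 passed under all 26 alternatives; of 116 that did not pass, 60 changed direction and 15 passed under at least 1. The causes were not tested. The number of arrays limits what these comparisons can show: single members had errors of 0.11 to 0.66 on the log2 scale.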
